A study of Homo sapiens with 6 samples.

Results

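A microRNA precursor is a short RNA hairpin whose stem is cut into a duplex of 2 strands of about equal length. Older names mark the strand thought to be the less abundant one, the passenger strand, with an asterisk, and leave the other, the guide strand, without one. The array read here carried 179 human probes with such a starred name among its 2997 probes. The rule that picked them uses names alone, though it was set with earlier results of these data known. It takes probes whose name begins with hsa- (or has-, as the array spells some of them), has no mismatch tag and ends in an asterisk. For 176 of them the array also held a probe of the same name without the asterisk, once the locus copy number was dropped (miR-92a-1* and miR-92a-2* are both set beside miR-92a), and these form 176 strand pairs over 162 distinct unstarred probes. The names miR-129*, miR-19* and miR-517* had no such partner. The names has-let-7f-1* and hsa-let-7f-1* belong to 2 different probes, and the prefix hsa- is left out below except for this name.

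All samples were HCT-116, an established human colorectal carcinoma line, transiently transfected with an empty vector (mock), with variant 1 of the ultraconserved-region RNA Uc283+a, which has a run of 8 T, or with variant 2, which has a run of 9 T. Each group had 2 arrays, with 4 µg of total RNA labelled from a random octamer primer for each, and all 3 groups share the line and the transfection. The series was made to look for miRNAs that respond to this RNA, and its title concerns the cutting of primary miRNA transcripts. No label says that the 2 arrays of a group came from separate cultures, and the p-values below cover the spread between arrays, which may be a technical one. The share of cells that took up a plasmid and the level of the transfected RNA were not analysed here.

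In cells, the nuclear enzyme Drosha and its partner DGCR8 crop the primary transcript, Dicer removes the loop, and an Argonaute protein keeps one strand of the duplex and releases the other. The strand whose 5′ end is the less firmly paired is usually kept, and Argonaute prefers U or A as the first base of a guide. Both strands of a hairpin come from one transcript, so a change in transcription or cropping acts on both, while a change in loading or stability can act on one. Some unstarred strands here, such as miR-92a and miR-138, arise from several loci. Where their starred names carry a locus copy number, each starred probe stands for a single locus. A change at that locus need not leave the balance unmoved. Some starred strands are loaded and repress targets of their own, as is known of miR-126*, miR-9* and miR-30a*. A short class of miRNA genes, the mirtrons, is excised as small introns by the spliceosome in place of Drosha. The miRNAs miR-877 and miR-1226 belong to it. The miRNA miR-1228 has been listed with them, but how it is made was not tested here.

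The strands below are the mature sequences that RefSeq gives on the human assembly GRCh38.p14, matched by the later strand name (5p or 3p). They are not the array's own oligonucleotides, whose sequences were not analysed here. Capitals mark the seed, bases 2 to 8 from the 5′ end, which does most of the pairing with targets. The first set shows the starred strands that gave high signal beside unstarred strands that did not.
miR-202*: uUCCUAUGcauauacuucuuug
miR-202: aGAGGUAUagggcaugggaa
miR-138-1*: gCUACUUCacaacaccagggcc
miR-138: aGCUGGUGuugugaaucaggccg
miR-373*: aCUCAAAAugggggcgcuuucc
miR-373: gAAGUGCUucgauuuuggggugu
miR-625*: gACUAUAGaacuuucccccuca
miR-625: aGGGGGAAaguucuauagucc
miR-126*: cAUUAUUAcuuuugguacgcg
miR-126: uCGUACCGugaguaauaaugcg
On the assembly, miR-202* lies at chr10:133247572-133247593 on the minus strand in MIR202, miR-138-1* at chr3:44114274-44114295 on the plus strand in MIR138-1, and miR-373* at chr19:53788710-53788731 on the plus strand in MIR373. The starred strand of MIR625 lies at chr14:65471153-65471174 and that of MIR126 at chr9:136670616-136670636, both on the plus strand.

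The second set shows pairs whose 2 strands both gave signal on every array. In it, let-7f-1* stands for the probe has-let-7f-1*, as hsa-let-7f-1*, matched to the same strand, did so on 4 arrays.
let-7b*: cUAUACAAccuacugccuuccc
let-7b: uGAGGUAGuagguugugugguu
let-7f-1*: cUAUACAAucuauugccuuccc
let-7f: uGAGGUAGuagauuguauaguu
miR-92b*: aGGGACGGgacgcggugcagug
miR-92b: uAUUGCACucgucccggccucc
miR-1226*: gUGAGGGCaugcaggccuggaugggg
miR-1226: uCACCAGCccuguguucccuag
miR-1228*: gUGGGCGGgggcaggugugug
miR-1228: uCACACCUgccucgcccccc
miR-593*: aGGCACCAgccaggcauugcucagc
miR-593: uGUCUCUGcugggguuucu
miR-29b-1*: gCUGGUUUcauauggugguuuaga
miR-29b: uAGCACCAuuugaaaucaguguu
Their starred strands lie at chr22:46113745-46113766 (MIRLET7B, plus strand), chr9:94176409-94176430 (MIRLET7F1, plus strand), chr1:155195196-155195217 (MIR92B, plus strand), chr3:47849555-47849580 (MIR1226, plus strand), chr12:57194504-57194524 (MIR1228, plus strand), chr7:128081876-128081900 (MIR593, plus strand) and chr7:130877507-130877530 (MIR29B1, minus strand). The starred strands of let-7b and let-7f-1 share the seed UAUACAA.

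The third set shows 2 starred strands from separate loci that share 1 unstarred strand, and the pair with the largest difference of starred signal between the variants and mock.
miR-92a-1*: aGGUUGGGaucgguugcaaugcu
miR-92a-2*: gGGUGGGGauuuguugcauuac
miR-92a: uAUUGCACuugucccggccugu
miR-122*: aACGCCAUuaucacacuaaaua
miR-122: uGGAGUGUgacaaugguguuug
The starred strand of MIR92A1 lies at chr13:91351324-91351346 on the plus strand, that of MIR92A2 at chrX:134169583-134169604 on the minus strand and that of MIR122 at chr18:58451124-58451145 on the plus strand.

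To show where the strands sit in their hairpins, those of MIR92B (chr1:155195177-155195272, plus strand) and MIR138-1 (chr3:44114212-44114310, plus strand) are given whole, with both mature strands in capitals. In MIR92B the starred strand comes first, at bases 20 to 41, and the unstarred strand follows at bases 61 to 82. In MIR138-1 the unstarred strand comes first, at bases 23 to 45, and the starred strand follows at bases 63 to 84.
MIR92B: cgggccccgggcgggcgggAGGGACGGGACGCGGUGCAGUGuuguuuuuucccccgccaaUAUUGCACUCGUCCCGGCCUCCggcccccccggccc
MIR138-1: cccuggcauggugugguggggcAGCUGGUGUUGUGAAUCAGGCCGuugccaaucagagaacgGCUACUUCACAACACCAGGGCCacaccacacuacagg

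Values are log2 signals that the authors had normalized. A probe is called above background on an array where its signal was higher than that of 95% of the 38 random-sequence probes there (their 95th percentile), a level that lay between 6.75 and 7.27. By this measure 51 and 57 starred probes were above background in mock, 57 and 49 with variant 1, and 28 and 63 with variant 2, whose replicate 1 had the highest background level. Mock replicate 1 and variant 2 replicate 2 stood apart from the rest. Over the 389 tested probes above background on all 6 arrays, the SD of the log2 difference between 2 arrays was 0.667 to 0.837 where either of them was involved and 0.463 to 0.576 otherwise. For the colon epithelium, the 9 marker miRNAs were the miR-192, miR-194 and miR-215 group, the miR-200 family and miR-21. Of these, 4 were above background on all 6 arrays (miR-200b, miR-200c, miR-429 and miR-21). The probes of miR-192 and miR-194 were above it on 1 array each, and that of miR-215 on none. Of the markers of other tissues, 1 of 7 haematopoietic, 1 of 6 muscle, 2 of 4 neural, 1 of 7 fibroblast and the only liver probe, miR-122, were above background on all 6 arrays.

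Few starred probes gave signal. Of the 179, 25 (14%) were above background on all 6 arrays, 77 on some arrays and 77 (43.0%) on none. Among the 936 unstarred mature-named human probes the share above background on all 6 arrays was 25%, and among the 162 unstarred partners of the starred probes it was 41.4%. The median of the mock means was 6.42 for the starred probes, near the random-sequence level, and 7.14 for their partners. Of the 3 starred probes without a partner, miR-129* was above background on 3 arrays, with 8.26 as its highest value, and miR-19* and miR-517* were on none. A probe below background has no measured level, and its differences between groups are given only as differences of signal.

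The brightest starred probe was miR-202*, from a miRNA known for its expression in the gonads, with log2 signals of 12.26 and 12.57 in mock, 12.60 and 12.70 with variant 1, and 12.57 and 12.77 with variant 2. Next came miR-138-1*, from one of the loci of miR-138, a miRNA abundant in brain, with 11.78 and 12.14 in mock, 12.15 and 11.97 with variant 1, and 11.73 and 11.72 with variant 2. The group means were 12.42, 12.65 and 12.67 for miR-202* and 11.96, 12.06 and 11.73 for miR-138-1* in the same order. Over both variants, the arrays of each probe overlapped those of mock.

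The mirtron strand miR-1226* followed with 10.78 and 10.85 in mock, 10.88 and 11.19 with variant 1, and 11.36 and 11.13 with variant 2. The starred strand of miR-373, a miRNA of a cluster active in embryonic stem cells, read 10.58 and 10.87 in mock, 10.37 and 10.73 with variant 1, and 10.81 and 10.64 with variant 2. Its arrays overlapped in all groups, whereas all 4 variant arrays of miR-1226* lay above both mock arrays. The difference of miR-1226* from mock was 0.32 for both variants together, which did not pass the test described further on.

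Another 9 probes had mock means between 8.58 and 9.47. They were miR-124*, miR-335*, miR-625*, miR-1228*, miR-93*, miR-629*, miR-877*, miR-593* and miR-126*. The strand miR-124*, from a miRNA of neurons, read 9.42 and 9.53 in mock, 9.52 and 9.27 with variant 1, and 9.88 and 9.32 with variant 2. The strand miR-126*, from an endothelial miRNA inside the gene EGFL7, read 8.54 and 8.62 in mock, 9.35 and 8.96 with variant 1, and 9.56 and 8.17 with variant 2. Its variant 2 arrays were further apart than the group means were.

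Among the rest of these 9, miR-1228* read 8.92 and 9.39 in mock, 9.32 and 9.15 with variant 1, and 9.49 and 9.51 with variant 2. Both variant 2 arrays thus lay above both mock arrays. The other mirtron strand, miR-877*, read 8.41 and 9.33 in mock, 9.15 and 9.07 with variant 1, and 9.01 and 8.56 with variant 2, all inside the span of the mock pair. The strand miR-93*, from a cluster driven by MYC and E2F, read 8.33 and 9.54 in mock, 9.13 and 9.16 with variant 1, and 8.71 and 8.20 with variant 2. Only its variant 2 arrays reached outside the mock pair, on 1 array. The strand miR-629* read 8.84 and 9.00 in mock, 9.08 and 9.22 with variant 1, and 8.79 and 9.31 with variant 2, and miR-625* read 9.39 and 8.98 in mock, 8.90 and 8.81 with variant 1, and 9.22 and 8.60 with variant 2. In both, variant 1 lay on 1 side of the mock arrays and variant 2 overlapped them.

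The remaining 12 probes above background had mock means from 7.34 to 8.31. They were miR-29b-1*, miR-185*, let-7b*, miR-551b*, miR-186*, miR-744*, miR-181a-2*, miR-145*, miR-92b*, has-let-7f-1*, miR-30c-2* and miR-2116*. Several were lowest on mock replicate 1, the array that stood apart. The strand miR-744* read 7.37 on it, 8.74 on the other mock array and 8.64 to 9.01 on the variant arrays. The strand miR-185* read 7.68 on it, 8.87 on the other mock array and 8.73 to 8.99 on the variant arrays. For both, the second mock array lay among the variant arrays.

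The strand let-7b* showed the same gap, with 7.55 and 8.79 in mock, 8.58 and 8.48 with variant 1, and 7.97 and 7.70 with variant 2. So did miR-186*, with 7.44 and 8.76 in mock, 8.38 and 9.43 with variant 1, and 8.34 and 7.65 with variant 2. The gap was in the other direction for miR-92b*, with 8.14 and 7.30 in mock, 9.07 and 7.92 with variant 1, and 7.74 and 8.38 with variant 2. In each of these 3 probes the variant arrays overlapped the mock pair. The strand miR-145*, from a miRNA of smooth muscle and fibroblasts that p53 induces, read 8.17 and 7.45 in mock, 7.98 and 8.71 with variant 1, and 7.55 and 7.46 with variant 2. The dimmest of the 25 was miR-2116*, with 7.09 and 7.59 in mock, 7.06 and 6.96 with variant 1, and 7.33 and 6.97 with variant 2, close to the background level of those arrays.

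Replicate arrays of a group were not tight. For the 25 starred probes above background, the difference between replicates had an SD of 0.722 in mock, 0.459 with variant 1 and 0.538 with variant 2. The balance of a pair, which adds the error of 2 probes, had an SD of 1.10, 1.04 and 0.91 between the 2 arrays in the same order, over all 176 pairs.

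Strand balance is given as the log2 signal of the unstarred probe minus that of the starred probe on the same array. Probes of different sequence bind with different strength, so the sign and size of a balance describe 2 probes and are not a ratio of RNA amounts. A constant affinity drops out when the balance is compared between groups, but only where both signals follow the RNA amount. A probe below background has no measured level, and both strands were above it on all 6 arrays in 12 of the 176 pairs. The median balance of the 176 pairs was 0.93 and 1.00 in mock, 0.83 and 0.71 with variant 1, and 0.91 and 0.69 with variant 2. The unstarred probe was the brighter one in 68.2% and 71.6% of pairs in mock, 72.2% and 71.6% with variant 1, and 76.1% and 67.6% with variant 2. It was brighter on all 6 arrays in 80 pairs, the starred probe was brighter on all 6 in 14, and 82 pairs had both signs. Across the 176 pairs, the mock means of the 2 strands had a Pearson correlation of 0.0941 and a Spearman correlation of 0.235, a description over probes of the same 2 arrays, in which 27 pairs share an unstarred probe with another pair.

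The pairs fell into 4 classes by background. In 66 pairs (37.5%) only the unstarred probe was above background on all 6 arrays, in 13 (7.39%) only the starred probe, in 12 (6.82%) both, and in 85 (48.3%) neither. The last class carries no usable balance. Its median balance lay between 0.05 and 0.35 on the 6 arrays.

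Where only the unstarred strand was above background, its probe was brighter on all 6 arrays in 62 of 66 pairs, and the median balance in mock was 3.48. The widest belonged to miR-92a, the oncogenic miRNA of the miR-17/92 cluster, whose probe read 15.42 and 15.22 in mock, 15.22 and 15.16 with variant 1, and 15.40 and 14.43 with variant 2. Against it miR-92a-2* gave balances of 10.11 and 9.83 in mock, 8.07 and 8.53 with variant 1, and 9.35 and 9.66 with variant 2. The other locus, miR-92a-1*, gave 8.58 and 7.89 in mock, 9.71 and 9.37 with variant 1, and 9.35 and 8.10 with variant 2. The starred probes were mostly below background, so these balances reflect the unstarred signal set against a probe near the random-sequence level.

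The same one-sided pattern was seen for miR-23b*, miR-222*, miR-23a*, miR-221*, miR-25*, let-7c*, miR-100*, miR-20a*, miR-191*, miR-21* and miR-17*. The unstarred miR-222, a repressor of the cell-cycle inhibitor p27, read 13.89 and 13.60 in mock, 13.71 and 12.99 with variant 1, and 13.35 and 13.06 with variant 2. The oncogenic miR-21 read 11.47 and 11.12 in mock, 10.27 and 10.43 with variant 1, and 10.33 and 10.15 with variant 2, whereas miR-21* stayed between 5.64 and 6.64 and was above background on no array. For miR-17, the balance against miR-17* was 4.83 and 4.96 in mock, 5.42 and 4.78 with variant 1, and 5.32 and 4.04 with variant 2, with overlapping groups.

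In the 13 pairs where only the starred probe was above background, the median balance in mock was -2.05, and the starred probe was brighter on all 6 arrays in every pair except miR-145*. For miR-138-1*, the balance was -4.84 and -6.58 in mock, -6.61 and -6.57 with variant 1, and -5.20 and -6.64 with variant 2. The unstarred miR-138 read 5.08 to 6.94 and was above background on 1 array. For miR-202*, the balance was -4.79 and -5.79 in mock, -5.76 and -6.62 with variant 1, and -5.10 and -4.95 with variant 2, and the unstarred miR-202, which shares most of its seed with let-7, was above background on 4 arrays.

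For miR-373*, the balance was -3.75 and -4.69 in mock, -4.68 and -3.41 with variant 1, and -5.02 and -3.83 with variant 2. For miR-625*, it was -3.60 and -2.48 in mock, -2.57 and -2.45 with variant 1, and -2.31 and -2.08 with variant 2, with mock replicate 1 as the lowest array and the other mock array among those of variant 1. The other members of this class were miR-126*, miR-185*, miR-335*, miR-629*, miR-744*, miR-551b*, miR-186*, miR-2116* and miR-145*. For miR-126*, the mean balance was -2.45 in mock, -2.34 with variant 1 and -2.58 with variant 2, and the starred probe was brighter on every array, with groups that overlapped. The pair of miR-185 varied most between arrays, with unstarred signals of 7.13 and 4.27 in mock. Over these 9 pairs, mean balances in mock ran from -2.58 for miR-185* to -0.45 for miR-145*, whose sign varied between arrays and whose unstarred probe was above background on 5. With miR-1228* and the dim pair of miR-379*, these make the 14 pairs whose starred probe was brighter throughout.

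Both strands were above background in 12 pairs, and these are the ones for which a balance compares 2 measured signals. The unstarred strand was brighter on all 6 arrays in 6 of them, miR-1228* was brighter than miR-1228 on all 6, and 5 had both signs. The tumour-suppressor let-7b had a balance of 4.86 and 3.61 in mock, 3.89 and 4.14 with variant 1, and 4.24 and 3.95 with variant 2. The widest balance was that of miR-92b, whose unstarred probe read 13.44 to 14.37, with 5.41 and 6.92 in mock, 5.30 and 6.36 with variant 1, and 6.28 and 5.06 with variant 2. In both pairs the arrays of the 3 groups overlapped.

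The pairs of miR-1226, miR-1228 and miR-877 stood near equality. For miR-1226, the balance was 0.23 and 0.72 in mock, 0.90 and 0.54 with variant 1, and 0.54 and 0.36 with variant 2. For miR-1228, it was -0.68 and -0.94 in mock, -0.83 and -0.92 with variant 1, and -0.60 and -0.59 with variant 2. For miR-877, it was 0.60 and -0.14 in mock, -1.27 and -0.24 with variant 1, and -0.26 and 0.77 with variant 2. The arrays of miR-1226 overlapped between mock and each variant, and the 2 variant 2 arrays of miR-1228 were the 2 highest of the 6. For miR-877, variant 2 overlapped mock, but both variant 1 arrays lay below both mock arrays. That change was -0.99, from -1.50 to -0.47 with single arrays left out, and did not pass.

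The pair of miR-124 had balances of 1.08 and 1.20 in mock, 1.63 and 1.55 with variant 1, and 0.94 and 1.42 with variant 2. That of miR-30c-2, of the epithelial miR-30 family, had 1.62 and 1.47 in mock, 1.44 and 1.16 with variant 1, and 0.31 and 0.78 with variant 2. All 4 variant arrays of miR-30c-2 lay below both mock arrays. The pair of has-let-7f-1* had 1.20 and 1.15 in mock, 1.21 and 0.24 with variant 1, and 1.99 and 1.69 with variant 2.

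The last 4 pairs lay close to equality or changed sign. For miR-29b-1, the balance ran from -0.03 to 0.68 over the 6 arrays. For miR-93, of the cluster next to miR-106b, it was 1.33 and -0.11 in mock and 0.06 to 0.65 on the variant arrays. For miR-181a-2, it was 1.67 and 0.14 in mock and -0.14 to 0.71 on the variant arrays. In both, mock replicate 1 was the highest array. The last pair, miR-593, is described with the comparison of the variants.

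To test whether starred signal differed between groups, a limma model with 1 mean per group was fitted to the 1773 human miRNA and ultraconserved-region probes. No starred probe passed a Benjamini-Hochberg adjusted p of 0.05 in any of the 4 comparisons, against a background of 0% of the 1773 probes in each of them (0 of 1773). For both variants against mock, 8 starred probes had an unadjusted p under 0.05 in limma, which is near the 4.62% of all probes tested that had one. Of the 8, 2 were higher, beside 2.2% of all probes, and 6 were lower, beside 2.43%. For variant 1 against mock there were 5, beside 4.12% of all probes, for variant 2 against mock 11, beside 4.79%, and for variant 2 against variant 1 there were 9, beside 4.96%. The smallest adjusted p among starred probes was 0.975, 0.960, 0.938 and 0.924 in the same order.

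The median log2 difference of the starred probes was -0.04 for both variants against mock, where that of all probes was -0.01. It was -0.05 for variant 1 against mock, 0.00 for variant 2 against mock and 0.01 for variant 2 against variant 1, where all probes had 0.00, 0.01 and 0.00. The 4 variant arrays did not overlap the 2 mock arrays for 21 of 179 starred probes (11.7%), and 13.3% of all probes tested did the same. The counts were 47 (26.3%) for variant 1, 61 (34.1%) for variant 2 and 67 (37.4%) between the variants, beside 33.8%, 33.3% and 35.5% of all probes. The share for variant 1 was below that of all probes, a difference that was not tested, and the other 3 lay within 2 percentage points of theirs. The first 3 comparisons share the mock arrays, and each is given with its own values.

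The probes with the lowest limma statistics for both variants together were miR-92a-1*, has-miR-7-1*, miR-519a*, miR-29b-1* and miR-519e*, none of which passed. For miR-92a-1*, the signal was 6.84 and 7.33 in mock, 5.51 and 5.79 with variant 1, and 6.05 and 6.32 with variant 2, a difference of -1.17 (SE 0.338) whose limma p was 0.00761 before and 0.975 after adjustment. All 4 variant arrays lay below both mock arrays, but the probe was above background on 1 array alone. The strand has-miR-7-1* read 7.97 and 8.93 in mock, 7.58 and 7.72 with variant 1, and 7.22 and 6.85 with variant 2, a difference of -1.11 (SE 0.379) that ranged from -1.60 to -0.63 with either mock array left out.

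Of these 5 probes, miR-29b-1* was above background on all 6 arrays. The miR-29 family represses collagens and DNA methyltransferases. Its starred signal was 8.78 and 7.85 in mock, 7.55 and 7.16 with variant 1, and 7.48 and 7.34 with variant 2. The variant arrays lay below both mock arrays, with a difference of -0.93 (SE 0.377) and an adjusted p of 0.975 in limma. Leaving out replicate 1 of mock gave -0.46, and leaving out replicate 2 gave -1.40. Its unstarred partner miR-29b read 9.24 and 7.85 in mock, 8.11 and 7.37 with variant 1, and 7.44 and 8.02 with variant 2, so the balance of the pair moved by 0.12.

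The highest limma statistics were those of miR-122*, miR-99a*, miR-302d*, miR-452* and miR-96*, again with none past the threshold. The strand miR-122*, from the abundant miRNA of hepatocytes, read 6.80 and 4.88 in mock, 8.02 and 7.61 with variant 1, and 7.01 and 7.13 with variant 2. All 4 variant arrays lay above both mock arrays, with a difference of 1.60 (SE 0.513). The mock arrays were almost 2 log2 units apart, and leaving out replicate 1 of mock gave 2.56, while leaving out replicate 2 gave 0.64. The differences of the other 4 were 0.95, 0.99, 0.75 and 0.71, on probes that read 4.16 to 5.92 in mock, below background. With either mock array left out, that of miR-302d* ranged from 0.18 to 1.80 and that of miR-99a* from 0.52 to 1.37.

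For variant 1 against mock, the lowest limma statistics were those of miR-92a-1* (difference -1.43), miR-29b-1* (-0.96) and miR-708* (-0.85), and the highest those of miR-122* (1.97), miR-92a-2* (1.54) and miR-452* (1.06). The difference of miR-29b-1* was -0.49 when mock replicate 1 was left out and -1.43 when mock replicate 2 was, and that of miR-122* was 2.93 and 1.01. The 2 loci of miR-92a thus lay on opposite sides. The signal of miR-92a-2* was 5.32 and 5.39 in mock, 7.15 and 6.64 with variant 1, and 6.05 and 4.77 with variant 2, near or below background throughout. For variant 2 against mock, the lowest limma statistics, which do not follow the order of the differences, were those of has-miR-7-1* (difference -1.42), miR-19b-2* (-1.27) and mir-1911* (-1.02), and the highest those of miR-23b* (1.08), miR-302d* (1.30) and miR-593* (0.87). With single arrays left out, these ranged from -1.90 to -0.94 for has-miR-7-1*, from -1.77 to -0.77 for miR-19b-2*, from 0.48 to 2.11 for miR-302d* and from 0.56 to 1.18 for miR-593*. No value of this paragraph passed in limma.

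Between the variants, miR-593* had the smallest p among starred probes. It read 8.67 and 8.82 in mock, 8.09 and 8.16 with variant 1, and 9.31 and 9.92 with variant 2, so the 3 groups did not overlap and mock lay between the variants. The difference of variant 2 from variant 1 was 1.49 (SE 0.391), and its limma p was 0.00441 before and 0.924 after adjustment. It ranged from 1.18, without variant 2 replicate 2, to 1.80, without variant 2 replicate 1. The unstarred miR-593 read 9.60 and 10.11 in mock, 9.87 and 10.18 with variant 1, and 9.81 and 9.92 with variant 2, with all groups overlapping.

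The balance of miR-593 was therefore 0.92 and 1.29 in mock, 1.78 and 2.02 with variant 1, and 0.50 with variant 2 on replicate 1, while on replicate 2 both strands read 9.92. The difference of variant 2 from variant 1 was -1.65 (SE 0.652, unadjusted p 0.0167, adjusted p 0.633 in limma over 266 pairs). It ranged from -1.90 to -1.40 when single arrays were left out. In a fit to those pairs alone whose strands were both above background, 12 of them starred, the limma p was 0.00111 before and 0.0188 after adjustment. It was the only starred balance called there. That fit tested fewer pairs and also took its prior for the spread from those pairs alone.

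The next limma statistics between the variants among starred probes above background were those of has-let-7f-1* (difference -1.34), miR-551b* (0.92), miR-145* (-0.84), miR-335* (-1.04) and miR-186* (-0.91). With single arrays left out, the difference ranged from -1.81 to -0.88 for has-let-7f-1*, from -1.20 to -0.47 for miR-145* and from -1.89 to -0.20 for miR-335*. Variant 2 replicate 2 read 7.49 for miR-335*, against 8.86 to 9.55 on the other 5 arrays, and that array was one of the 2 that stood apart. The 2 probes named let-7f-1* disagreed. The one spelt has- read 7.26 and 8.16 in mock, 8.11 and 9.05 with variant 1, and 7.31 and 7.16 with variant 2, and the one spelt hsa- read 7.17 and 7.79, 8.06 and 6.62, and 7.72 and 6.43 in the same order. Whether their oligonucleotides differ is not shown by the names.

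The balance was tested in the same way over 266 pairs, the 176 starred pairs and 90 pairs named 5p and 3p. No starred pair passed in any of the 4 comparisons, against a background of 0% of the 266 pairs. Unadjusted p-values under 0.05 in limma were found for 4 starred pairs for both variants against mock, 4 for variant 1, 5 for variant 2 and 8 between the variants, beside 2.63%, 4.14%, 3.38% and 6.77% of all pairs. The median change of balance was -0.06, -0.06, -0.11 and -0.01 in the same order, and over all 266 pairs it was -0.08, -0.07, -0.07 and -0.01. Arrays did not overlap for 21, 50, 64 and 67 starred pairs, beside 10.9%, 28.9%, 35% and 38.3% of all pairs. The median SE of a change in balance was 0.584 for both variants against mock.

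For both variants against mock, the lowest limma statistics of a balance were those of miR-122 (change -1.69), miR-141 (-1.57), miR-23b (-1.27), miR-18a (-1.13) and miR-181a (-1.13, and -0.57 without mock replicate 1). For miR-141 and miR-18a neither strand was above background on all 6 arrays, and for the others only the unstarred strand was. For miR-141, an epithelial miRNA of the miR-200 family that represses ZEB1 and ZEB2, the balance was 2.04 and 1.54 in mock, 0.07 and 0.66 with variant 1, and 0.85 and -0.71 with variant 2. All 4 variant arrays lay below both mock arrays, and the limma p was 0.0124 before and 0.966 after adjustment. Its unstarred probe was above background on 3 arrays and its starred probe on none. For miR-23b, whose unstarred probe read 12.95 to 14.32, the balance was 7.56 and 8.23 in mock, 7.33 and 6.82 with variant 1, and 6.96 and 5.38 with variant 2.

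For miR-122, the balance was 2.81 and 4.99 in mock, 1.44 and 2.22 with variant 1, and 2.68 and 2.48 with variant 2. The unstarred miR-122 read 9.46 to 9.88 on the 6 arrays, so the spread of the balance was that of the starred probe. Its change was -2.79 when replicate 1 of mock was left out and -0.60 when replicate 2 was. The highest limma statistics were those of miR-519a (1.21), miR-454 (1.17), miR-505 (1.28), miR-340 (1.12) and miR-32 (1.08), and none of them passed. For miR-519a, miR-454, miR-505 and miR-340 neither strand was above background on all 6 arrays, so these are not measured balances. For miR-32 only the unstarred strand was above it on all 6. With mock replicate 1 left out, the changes of miR-505, miR-340 and miR-32 were 0.22, 0.22 and 0.31. Among pairs with both strands above background, changes for both variants lay between -0.63 for miR-30c-2 (SE 0.563, 95% interval -1.77 to 0.52) and 0.24 for miR-124 (SE 0.562).

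The miR-15/16 family holds miR-195, which brakes the cell cycle. Its starred probe miR-195* read 6.71 and 6.40 in mock, 6.24 and 6.25 with variant 1, and 4.19 and 6.92 with variant 2. The balance of miR-195 was 2.64 and 2.83 in mock, 2.18 and 2.33 with variant 1, and 4.79 and 1.53 with variant 2, a change of -0.03 (SE 0.664) for both variants. The starred probe exceeded background on variant 2 replicate 2 alone, so this balance rests on 1 measured strand. The family member with the larger limma statistic was miR-16-2*, above background on 4 arrays. Its difference for both variants was -0.76, from -1.27 to -0.24 with single arrays left out. Of the 7 starred probes of the family, none was above background on all 6 arrays, 1 was higher and 6 were lower with both variants than in mock, with a median difference of -0.20, and 4 of 7 balances were higher.

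The other families and clusters are given as counts, none of their members having passed in any comparison. Signs are those of the mean of both variants minus mock, for which 49.4% of all probes were above 0 and 43.2% of all balances were. Of the 10 let-7 starred probes, 3 were higher and 7 lower, with a median of -0.38, 2 were above background, and 8 of 10 balances were higher. Of the 14 of the miR-17/92 clusters, 7 were higher and 7 lower, with a median of 0.02, and 5 balances were higher. Of the 10 of the miR-29 and miR-30 families, 2 were higher and 8 lower, with a median of -0.20, and 3 balances were higher. Of the 4 of the epithelial miR-200 family, 3 were higher and 1 lower, with a median of 0.09, and all 4 balances were lower, with a median of -0.58.

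Of the 6 of the miR-23/27/24 clusters, 3 were higher and 3 lower, with a median of 0.06, and 1 balance was higher. None of these 6 starred probes was above background on all 6 arrays. Of the 6 from miRNAs that p53 induces, 4 were higher and 2 lower, with a median of 0.17, and 1 balance was higher. Of the 19 starred strands known to be loaded or active, 9 were higher and 10 lower, with a median of -0.08, 4 were above background (miR-126*, miR-30c-2*, miR-629* and miR-744*) and 5 balances were higher. Of the 11 of the imprinted 14q32 cluster, 4 were higher and 7 lower, with a median of -0.15, and 7 balances were higher. Of the 10 of the placental C19MC cluster, 4 were higher and 6 lower, with a median of -0.13, and 8 of 9 balances were higher. Neither of the last 2 clusters had a starred probe above background on all 6 arrays. Among their unstarred partners only miR-541 was above it on all 6, so the other balances of both clusters are not measured ones. The 4 small nucleolar RNA probes, which stayed out of the tests, differed from mock by -0.31 to -0.74 on the same arrays, and their part in the medians below 0 was not tested.

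What the probes share beyond their names was read from the RefSeq strands, which were found for 158 of the 179 starred probes, 24 of the 25 above background among them. For 7 of the 158 the unstarred strand was not matched. The median share of G and C was 54.5% for starred strands above background on all 6 arrays, 50.0% for the 71 above it on some and 45.5% for the 63 above it on none. Across the 158 strands, GC share and mock signal had a Spearman correlation of 0.0837. Of the 158, 91 lie on the 3p arm, 15 of them above background, and 67 on the 5p arm, 9 of them above background.

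The first base set the 2 kinds of strand apart. Of 138 distinct unstarred strands, 86 began with U, 28 with A, 16 with C and 8 with G. Of the 158 starred strands, 26 began with U, 45 with A, 66 with C and 21 with G. Of the 21 that began with G, 9 were above background on all 6 arrays, as were 3 of those with U, 6 with A and 6 with C, and the median mock balance was -0.24 for G, 0.34 for U, 0.88 for A and 1.14 for C. These are descriptions over probes that share 2 arrays and, in part, families.

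Starred probes with a shared seed could be compared. The 4 probes with the seed UAUACAA, those of let-7a, let-7b and let-7f-1, had mock means between 7.48 and 8.17, and 2 of them were above background on all 6 arrays. The 5 with the seed UCUAGAG, miR-518e*, miR-518f*, miR-519a*, miR-522* and miR-523* of the C19MC cluster, had mock means between 5.03 and 6.45, and none was above background on all 6 arrays. Of the 2 with the seed CUCAAAA, miR-373* had a mock mean of 10.72 and miR-616* of 6.81.

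A second reading came from 63 mouse-named starred probes of the same miRNA name. Across these names the mock means of the human-named and mouse-named probes had a Pearson correlation of 0.55 and a Spearman correlation of 0.562, while their differences between variants and mock had a Pearson correlation of 0.0849. Both are descriptions over probes of the same arrays. Of the 9 human-named starred probes above background that had such a namesake, the mouse-named probe was above background too for let-7b*, miR-181a-2*, miR-186*, miR-744* and miR-877*. It was not for miR-124*, miR-145*, miR-30c-2* and miR-93*. The mouse-named miR-124* read 5.27 to 6.63, where the human-named one read 9.27 to 9.88. The mouse-named miR-181a-2* read 12.46 to 13.16, where the human-named one read 7.35 to 8.73.

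Mismatch probes, copies of a probe with 1 or more bases changed, were printed for 5 starred names. For miR-155*, from an immune miRNA, the matched probe had a mean of 7.71 over the 6 arrays, 1 of its 6 mismatch probes was lower, and they ranged from 7.43 to 9.95, with 4 above background on all 6 arrays. For miR-181a*, the matched probe had a mean of 6.47 and none of 6 mismatch probes was lower, with a range of 6.52 to 9.41. For miR-17*, 10 of 12 mismatch probes were lower than the matched probe at 6.22. For miR-21* and miR-221*, 4 of 8 and 3 of 6 were lower. None of these 5 starred probes was itself above background on all 6 arrays, and none of the 93 mismatch probes was a copy of a starred probe that was.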

How the data were processed

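The authors deposited 1 table of log2 signals for 6 one-colour arrays, already normalized, with no depth or counts. Limma is the tool listed in the submitters' processing notes, and the normalization method is not given in the sources used here. Array medians lay between 6.56 and 6.60. Replicates were numbered as deposited, which pairs none of them.

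Starred probes and their partners were found by name, and strand balance was computed per array. The 6 arrays were fitted in limma 3.58.1 (R 4.3.3), each group having its own mean, over 1773 probes (1741 human miRNA probes and 32 for ultraconserved regions, 3 residual degrees of freedom, 5.71 added by the prior) and over 266 strand pairs (28.3 added). Tests were two-sided, Benjamini-Hochberg adjusted over each table at a threshold of 0.05. No probe was removed for low signal. The steps were tested on simulated data for both variants against mock. A simulated log2 change of 1 was recovered for 11% of the changed probes and 5.5% of the changed pairs. A change of 2 was recovered for 81.4% and 53%. A comparison in which nothing passed therefore does not show that nothing changed.

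Named probes are those above background on all 6 arrays, pairs with both strands above it, the extremes of each limma comparison (5 each way for both variants together, 3 for the others) and 2 members of each of 10 lists. Not every probe picked this way is printed above. The members, lists and background level were chosen with earlier results of these data known. Strand arms come from later miRNA names. The alternatives tried were single arrays left out, another prior, quantile normalization, random-probe centring, dim-probe filters and narrower tables.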

Additional observations from a re-analysis of the deposited data

Results flagged for a closer look

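Of the mouse-named starred probes, 57 had no human starred probe of exactly the same name, and these enter no comparison. Some of them differ from a human starred name only by a locus copy number. Of the 57, 12 gave signal above the random-sequence level on all 6 arrays, the mock arrays included. Their mean log2 signals in mock were 11.6 for mmu-miR-467b*, 10.4 for mmu-miR-138*, 10.03 for mmu-miR-467d*, 9.38 for mmu-miR-483*, 9.11 for mmu-miR-3099*, 8.67 for mmu-miR-467e*, 8.65 for mmu-miR-382*, 8.59 for mmu-miR-7a*, 7.50 for mmu-miR-29b*, 7.38 for mmu-miR-297c*, 7.20 for mmu-miR-297a* and 7.13 for mmu-miR-467a*. The probe mmu-miR-138* is equally near in name to the human miR-138-1*, itself among the brightest, and to miR-138-2*. The latter had a mock mean of 6.99 and was above background on 3 arrays. No test was made on these probes.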

How the results depend on the processing

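No paired analysis was possible because the replicate numbers only follow the order of deposit. Of 1387 recomputed values, 1360 kept their direction and their side of the threshold, among them every count of called starred probes. The number of starred probes above background on all arrays was 14 with the highest random-sequence probe as background and 25 to 30 with single arrays left out, and that of pairs with both strands above background was 6 and 12 to 18. In the fit to pairs with both strands above background, 1 starred balance was called between the variants. It was that of miR-593 at -1.65 (limma adjusted p 0.0188). There fewer pairs were tested, and the unadjusted limma p, 0.00111, was also lower than over the whole table. That fit took its prior for the spread from those pairs alone. Of 113 named differences, none called over the whole table, 72 moved by over 1.5 times with at least 1 single array left out, and some turned. For both variants against mock, they ranged from -1.33 to 0.032 for miR-195*, -0.89 to 0.35 for miR-143*, -1.13 to 0.0053 for miR-376a* and -0.016 to 1.18 for miR-185*, and the balances from -1.31 to 0.21 for miR-181a-2, -0.13 to 0.36 for miR-1226 and -0.11 to 0.35 for miR-29b-1. Leaving out mock replicate 1 and variant 2 replicate 2 together, a choice made after seeing the data, gave 0.057 for miR-625*, -0.080 for miR-185*, and balances of 0.40 for miR-181a-2 and -0.089 for miR-1226. For variant 1 against mock, the balances ranged from -0.93 to 0.033 for has-let-7f-1* and -1.21 to 0.315 for miR-181a-2, which was 0.315 with both arrays out. For variant 2 against mock, differences ranged from -1.08 to 0.13 for miR-93* and -0.013 to 1.18 for miR-185*, and balances from -1.42 to 0.11 for miR-181a-2 and -0.27 to 0.44 for miR-29b-1. With both arrays out these were -0.14 for miR-185*, 0.49 for miR-181a-2 and -0.041 for miR-29b-1. The miR-195* extremes came from the variant 2 arrays, those of has-let-7f-1* from the variant 1 arrays, and the others from the mock arrays except the last. The cause was not tested. With 2 arrays per group and an unstated normalization, signals near the random-sequence level have no order.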
